A study of Homo sapiens with 40 samples.

Results

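The 9 genes described are amino acid transporters, SLC7A5, SLC3A2, SLC43A1, SLC1A5, SLC1A4, SLC38A1, SLC38A2, SLC7A1 and SLC7A11. They were taken by exact gene name from a count table of 44584 names, in which each had 1 row, and all 9 passed the filter on low counts and were tested in every comparison. GLS2, the gene of the liver-type glutaminase, is given beside them. The libraries were made of RNA from BT474, cells of a HER2-amplified breast carcinoma that respond to trastuzumab, an antibody against HER2, and from BT474R, a derivative that resists the antibody. BT474R is clone 5 of BT474 cells that had been grown with trastuzumab, so the resistant state is represented by 1 clone. Both lines were serum starved and collected at baseline (T0), or 1, 12 or 24 h after addition of fresh starvation medium with 50 ng/mL EGF, a ligand of EGFR, with 10 ng/mL HRG (heregulin), a ligand of HER3 and HER4, or with water as the vehicle. These 20 groups had 2 libraries each, 40 in all, and replicates are known only by their number, so p-values measure the spread between these libraries, which may be technical.

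SLC7A5 (LAT1) is the light chain and SLC3A2 (CD98 heavy chain) the heavy chain of a heteromeric exchanger that brings leucine and other large neutral amino acids into the cell and sends glutamine out. SLC1A5 (ASCT2), SLC38A1 and SLC38A2 supply the glutamine, which cells turn into glutamate, and SLC7A1 (CAT1) brings in arginine. Leucine and arginine signal to mTORC1, a growth kinase that is activated at the lysosome and that HER2 signaling also drives through PI3K and AKT.

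Libraries held between 16794594 and 33387936 counts on genes, and levels are given in CPM, counts scaled to a fixed library size after TMM normalization. CPM is not corrected for gene length, so it is compared between samples and not between genes. A lower CPM in a group cannot tell fewer cells with the RNA from less RNA per cell. A difference was called when its adjusted p was under 0.05 in the quasi-likelihood test of edgeR. The p-values were adjusted over all genes by the Benjamini-Hochberg method, and effects are log2 fold changes with their standard error (SE). Where libraries are said not to overlap, this describes 2 libraries against 2 and is not a test. Groups also lay apart without a call, as HRG and vehicle did for SLC7A5 in BT474R at 12 h. The 8 luminal epithelial markers were detected in all 40 libraries, with ERBB2, the gene of HER2, at 6119 to 9955 CPM on raw library totals and GATA3 at 9.94 to 574 CPM. Of 9 markers of other cells, PTPRC, CD3E, PECAM1, COL1A2, ACTA2 and KRT14 had at most 7 counts in a library and KRT5 at most 65, while COL1A1 was at 74.7 to 282 CPM and VIM at 23.0 to 92.1 CPM. The 9 together summed to between 110 and 375 CPM, and their part in the results was not tested. Replicates differed most in HRG-BT474R and vehicle-BT474R at 24 h, where the chi-square between the replicates of a group, as a median over genes, was 2.56 and 1.58, against 0.595 to 1.27 in the other 18 groups.

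The sequence around the start of transcription is shown for 4 genes. They are SLC7A5 with SLC3A2, SLC7A1 (raised by both ligands in both lines) and SLC38A2 (raised at 1 h in BT474). The sequences are from RefSeq (GRCh38.p14), 250 bases before to 50 bases after an annotated start, written 5′ to 3′ on the strand of the gene. RefSeq gave 15 starts for 8 of the 9 genes, and SLC7A11 had none in the table used. Capitals mark matches on either strand to 3 motifs, CACGTG (the E-box bound by MYC and MAX), TGATGNAA (the core of the element bound by ATF4 with C/EBP factors) and TGACNNNGC (the core of the antioxidant response element bound by NRF2). The SLC7A5 window is chr16:87869458-87869757 on the minus strand, the SLC3A2 window chr11:62881449-62881748 on the plus strand, the SLC7A1 window chr13:29595639-29595938 on the minus strand and the SLC38A2 window chr12:46372724-46373023 on the minus strand.
SLC7A5: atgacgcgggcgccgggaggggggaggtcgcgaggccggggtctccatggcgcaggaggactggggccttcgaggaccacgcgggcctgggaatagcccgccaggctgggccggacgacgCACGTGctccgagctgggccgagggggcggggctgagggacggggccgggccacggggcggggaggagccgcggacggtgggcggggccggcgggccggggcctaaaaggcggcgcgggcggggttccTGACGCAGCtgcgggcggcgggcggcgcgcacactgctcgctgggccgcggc
SLC3A2: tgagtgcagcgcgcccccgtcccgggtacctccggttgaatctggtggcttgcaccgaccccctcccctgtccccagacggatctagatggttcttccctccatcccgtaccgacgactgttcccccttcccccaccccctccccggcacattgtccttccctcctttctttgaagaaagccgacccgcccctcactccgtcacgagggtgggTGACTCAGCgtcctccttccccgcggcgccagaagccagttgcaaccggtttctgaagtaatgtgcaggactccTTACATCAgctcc
SLC7A1: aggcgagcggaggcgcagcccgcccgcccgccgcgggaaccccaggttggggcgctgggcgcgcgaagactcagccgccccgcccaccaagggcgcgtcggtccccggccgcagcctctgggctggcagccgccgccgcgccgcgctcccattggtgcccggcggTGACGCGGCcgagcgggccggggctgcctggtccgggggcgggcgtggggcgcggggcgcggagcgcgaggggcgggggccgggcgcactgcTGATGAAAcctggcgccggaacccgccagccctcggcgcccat
SLC38A2: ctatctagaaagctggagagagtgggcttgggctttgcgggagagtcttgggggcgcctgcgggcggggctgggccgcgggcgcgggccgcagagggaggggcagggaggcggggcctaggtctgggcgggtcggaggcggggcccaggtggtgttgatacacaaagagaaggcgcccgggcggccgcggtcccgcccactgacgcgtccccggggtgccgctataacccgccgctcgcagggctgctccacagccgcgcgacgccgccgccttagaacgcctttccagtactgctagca
The SLC7A5 window holds CACGTG at position -130 and TGACGCAGC at -2, counted from the start to the first base of the match. In the SLC3A2 window shown, TGACTCAGC lies at -37 and TTACATCA, a TGATGNAA match on the other strand, at 38. The windows of its other annotated starts, chr11:62855859-62856158 and chr11:62880646-62880945, are not printed and had no match to the 3 motifs. SLC7A1 has TGACGCGGC at -85 and TGATGAAA at 8, and the SLC38A2 window has no match to the 3 motifs. CACGTG was found at 3 of the 15 starts (SLC7A5, SLC1A5 and SLC43A1) and in 7.26% of all 35116 windows of this kind. TGATGNAA was found at 5 of the 15 starts (SLC3A2, SLC7A1, SLC1A4, SLC1A5 and SLC38A1) and in 3.62% of all windows, and TGACNNNGC at 4 of the 15 starts and in 13.3% of all windows. A match shows only that these letters are present.

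SLC7A5 and SLC3A2 rose in BT474 with both ligands, more with HRG than with EGF, and for both genes the HRG effect at 12 h and 24 h was smaller in BT474R by the interaction test. In BT474, SLC7A5 was at 224 and 228 CPM at T0, and the vehicle libraries had 253 and 258 CPM at 1 h, 159 and 156 at 12 h and 186 and 156 at 24 h. EGF-BT474 libraries had 221 and 227 CPM at 12 h and 259 and 226 at 24 h, and HRG-BT474 libraries 264 and 268 CPM at 12 h and 334 and 300 at 24 h. All ligand libraries at 12 h and 24 h thus lay above both vehicle libraries of their time, and the EGF libraries at 12 h lay close to the T0 level. SLC7A5 rose with EGF by 0.49 (SE 0.06, adjusted p = 1.36e-08 in edgeR) at 12 h and 0.50 (SE 0.06, adjusted p = 7.57e-09) at 24 h. With HRG it rose by 0.73 (SE 0.06, adjusted p = 2.2e-13) at 12 h and 0.87 (SE 0.05, adjusted p = 2.1e-15) at 24 h, the latter a 1.83-fold change. Rows of SLC7A5 pseudogenes held 0.845% to 2.09% as many counts as SLC7A5. These counts do not measure reads shared with near copies, and the part of such reads in its level was not tested. At 1 h the log2 differences of 0.04 with EGF and 0.10 with HRG were not called.

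SLC3A2 was already higher at 1 h in BT474. Vehicle libraries had 136 and 131 CPM, EGF libraries 155 and 154 CPM and HRG libraries 159 and 154 CPM, with no overlap of either ligand with vehicle, and the rises were 0.19 (SE 0.04, adjusted p = 0.00821) and 0.21 (SE 0.04, adjusted p = 0.00134). The EGF call at 1 h was lost without EGF replicate 2 (0.18, adjusted p = 0.0732) or vehicle replicate 2 (0.17, adjusted p = 0.161), and when only the 4 libraries compared were fitted. At 12 h the vehicle libraries had 104 and 103 CPM, against 131 and 138 with EGF and 153 and 151 with HRG, and SLC3A2 rose by 0.36 with EGF and 0.52 with HRG. At 24 h it rose by 0.31 with EGF and 0.51 with HRG (adjusted p between 6.29e-12 and 1.71e-06 in these 4 edgeR tests). The direct comparison of the ligands in BT474 gave HRG over EGF for SLC7A5 by 0.24 (SE 0.05, adjusted p = 0.00949) at 12 h and 0.37 (SE 0.05, adjusted p = 0.000113) at 24 h. For SLC3A2 it gave 0.16 (SE 0.04, adjusted p = 0.0343) and 0.21 (SE 0.04, adjusted p = 0.00875). In edgeR with all libraries of the line, the light and the heavy chain were the only 2 of the 9 genes called at either time. At 12 h DESeq2 called 3 of the 9, and edgeR with only the libraries compared called 4. Leaving out any 1 of the 4 libraries at 12 h left at most 1 of these 2 genes called, with log2 differences from 0.21 to 0.26 for SLC7A5 and from 0.12 to 0.21 for SLC3A2. At 24 h the SLC3A2 call was lost without EGF replicate 1 (0.19, adjusted p = 0.071) or HRG replicate 1 (0.15, adjusted p = 0.171).

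In BT474R, SLC7A5 vehicle libraries had 235 and 242 CPM at 12 h and 242 and 283 at 24 h, EGF libraries 275 and 272 and then 267 and 290, and HRG libraries 249 and 264 and then 270 and 281. The 12 h groups did not overlap, while at 24 h both ligands overlapped vehicle. Of the 4 differences, EGF at 12 h was called (0.20, SE 0.06, adjusted p = 0.0384 in edgeR), and the others were 0.08 with EGF at 24 h and 0.09 and 0.08 with HRG at 12 h and 24 h. The EGF call at 12 h was lost without any 1 of its 4 libraries (0.18 to 0.24, adjusted p from 0.0569 to 0.212). At 24 h the differences rested on the vehicle libraries, with 0.21 for both ligands without vehicle replicate 2 (adjusted p = 0.0145 with EGF and 0.037 with HRG) and -0.03 and -0.04 without vehicle replicate 1. SLC3A2 in BT474R was between 77.3 and 94.2 CPM in all vehicle, EGF and HRG libraries of 12 h and 24 h. It differed from vehicle by 0.13 and 0.11 under EGF and by 0.02 and 0.10 under HRG, and none of these was called.

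**Figure D1:**
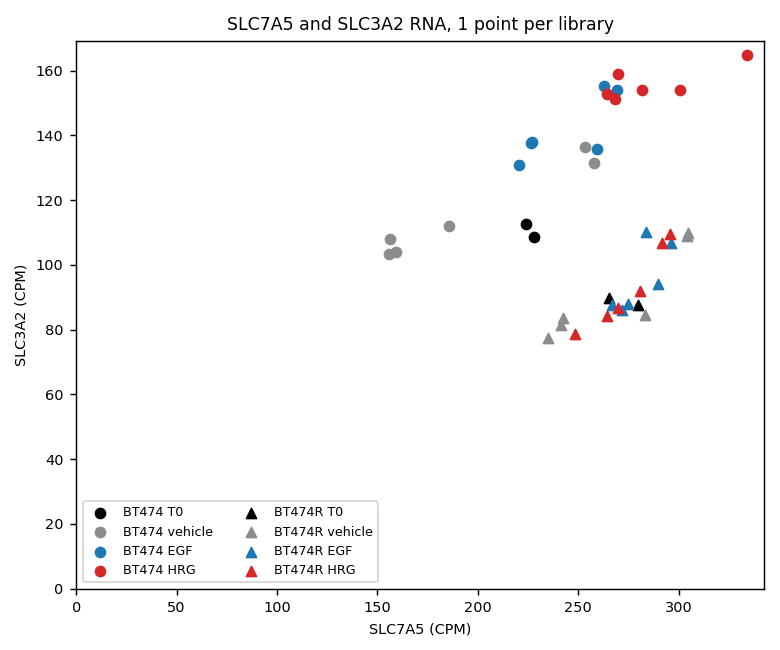
SLC3A2 level (vertical axis, CPM) against SLC7A5 level (horizontal axis, CPM), 1 point per library, circles for BT474 and triangles for BT474R, coloured by treatment. The BT474 points run from the 12 h and 24 h vehicle libraries, at 156 to 186 CPM of SLC7A5 and 103 to 112 CPM of SLC3A2, to the HRG libraries of 24 h, at 300 and 334 CPM of SLC7A5, and the BT474R points lie lower in SLC3A2 at like SLC7A5.

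SLC43A1 (LAT3), a carrier of large neutral amino acids that works without the heavy chain, was near the limit of measurement. Its group means were between 1.04 and 1.91 CPM, with as few as 22 counts in a library, and no difference between ligand and vehicle was called. The largest of the 12 was -0.70 (95% interval -1.24 to -0.15, adjusted p = 0.73 in edgeR) in EGF-BT474R at 1 h. This interval, which is not adjusted over genes, left out 0, but the difference was not called after adjustment over all genes.

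SLC1A5 and SLC1A4, 2 exchangers of neutral amino acids of 1 family, rose together in BT474, while in BT474R SLC1A5 rose and SLC1A4 was not called. SLC1A5 was at 205 and 209 CPM in vehicle-BT474 at 12 h, 271 and 280 with EGF and 283 and 292 with HRG. At 24 h it was at 196 and 202 CPM in vehicle, 254 and 252 with EGF and 265 and 275 with HRG. The ligand libraries lay above all vehicle libraries, and SLC1A5 rose by 0.40 and 0.34 under EGF and 0.45 and 0.42 under HRG, each with an SE of 0.04 (adjusted p at most 1.47e-08 in edgeR). In BT474R, where the level was higher throughout, vehicle libraries had 332 and 328 CPM at 12 h and 266 and 310 at 24 h, and EGF libraries 380 and 376 and then 366 and 381. EGF raised SLC1A5 in BT474R by 0.20 (SE 0.06, adjusted p = 0.0303) at 12 h and 0.37 (SE 0.06, adjusted p = 7.87e-05) at 24 h. At T0 the BT474R libraries had 349 and 353 CPM. This was above the vehicle and HRG libraries of 24 h and below the EGF libraries of that time. HRG-BT474R libraries had 367 and 364 CPM at 12 h and 318 and 347 at 24 h, and the difference was 0.13 at 12 h, which was not called, and 0.22 (SE 0.06, adjusted p = 0.045) at 24 h. The 24 h call was lost without HRG replicate 2 (0.16, adjusted p = 0.242) or vehicle replicate 1 (0.10, adjusted p = 0.658), and the EGF call at 12 h without any 1 of its 4 libraries (0.18 to 0.22).

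SLC1A4 (ASCT1) was at 149 and 141 CPM in vehicle-BT474 at 12 h and 145 and 141 at 24 h, 182 and 178 and then 193 and 186 with EGF, and 171 and 180 and then 188 and 194 with HRG. Neither ligand overlapped vehicle at these times. EGF raised SLC1A4 by 0.30 and 0.40 and HRG by 0.25 and 0.39 (SE 0.04 each, adjusted p at most 6.43e-06 in edgeR). In BT474R all 20 libraries lay between 147 and 165 CPM, a narrower range than in BT474, where they lay between 129 and 194 CPM. The SLC1A4 differences from vehicle in BT474R were -0.04 and -0.04 with EGF at 12 h and 24 h and 0.10 with HRG at 24 h, and none was called. The EGF difference at 24 h was 0.04 without vehicle replicate 2.

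The SLC38 pair of sodium-coupled glutamine carriers did not move alike. SLC38A2 (SNAT2) rose early and briefly in BT474, from 364 and 353 CPM in vehicle at 1 h to 462 and 470 with EGF and 503 and 496 with HRG. These 1 h ligand libraries lay above all 16 other BT474 libraries. The rise was 0.36 (SE 0.05, adjusted p = 9.93e-07 in edgeR) with EGF and 0.47 (SE 0.05, adjusted p = 1.55e-09) with HRG, and of the 9 genes only SLC3A2, and with HRG SLC7A1, was also called at 1 h. At 12 h and 24 h SLC38A2 was between 346 and 395 CPM in all vehicle, EGF and HRG libraries of BT474, with overlapping groups. In BT474R, SLC38A2 had 392 and 407 CPM in vehicle at 1 h, 445 and 455 with EGF and 444 and 410 with HRG. The differences of 0.17 (adjusted p = 0.639) and 0.10 were not called. With only the 4 libraries compared, the EGF difference at 1 h was called (0.17, adjusted p = 0.0158 in edgeR). With all 20 libraries of the line fitted, SLC38A2 was called once in BT474R, with EGF at 24 h. It was at 504 and 484 CPM against 428 and 436 in vehicle (0.19, SE 0.06, adjusted p = 0.039). This call was lost without any 1 of its 4 libraries (0.15 to 0.23).

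SLC38A1 (SNAT1) changed little with the ligands. It was between 793 and 948 CPM in the BT474 libraries and between 595 and 793 CPM in the BT474R libraries. HRG raised it in BT474 by 0.10 at 12 h (SE 0.03, adjusted p = 0.0266 in edgeR) and by 0.10 at 24 h (SE 0.03, adjusted p = 0.0406), and its other 10 ligand differences were not called. Each of these HRG calls was lost when 1 of 2 libraries was left out (HRG or vehicle replicate 2 at 12 h, HRG replicate 1 or vehicle replicate 2 at 24 h), with values from 0.04 to 0.08 on the log2 scale.

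SLC7A1, the arginine carrier, was the gene raised most widely. In BT474, SLC7A1 was at 81.1 and 80.5 CPM in vehicle at 12 h, 108 and 110 with EGF and 120 and 123 with HRG, and at 24 h at 99.6 and 99.0 in vehicle, 134 and 121 with EGF and 139 and 133 with HRG. In BT474R it was at 77.6 and 71.5 CPM in vehicle at 12 h, 99.9 and 100 with EGF and 94.8 and 95.9 with HRG, and at 24 h at 76.6 and 88.0 in vehicle, 127 and 128 with EGF and 96.0 and 103 with HRG. No ligand library overlapped vehicle at 12 h or 24 h in either line, and SLC7A1 was the only 1 of the 9 genes called in all 8 of these comparisons. EGF raised it in BT474 by 0.41 and 0.35, and HRG by 0.56 and 0.43. In BT474R they were 0.42 (SE 0.07, adjusted p = 9.51e-05 in edgeR) and 0.64 (SE 0.06, adjusted p = 2.57e-07) with EGF and 0.34 (SE 0.07, adjusted p = 0.00279) and 0.29 (SE 0.07, adjusted p = 0.0167) with HRG. The HRG call at 24 h was lost without HRG replicate 2 (0.24, adjusted p = 0.0915) or vehicle replicate 1 (0.18, adjusted p = 0.419). HRG minus EGF in BT474R at 24 h was -0.34 (SE 0.06, adjusted p = 0.0015). HRG-BT474 at 1 h was also called, at 99.8 and 103 CPM against 86.0 and 91.5 (0.18, SE 0.05, adjusted p = 0.0225), but not without HRG replicate 2 (adjusted p = 0.125) or vehicle replicate 1 (0.15, adjusted p = 0.376).

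SLC7A11 (xCT), which exchanges glutamate for cystine and pairs with the same heavy chain as SLC7A5, was a low gene with group means from 3.72 to 10.9 CPM. It was called once against vehicle, in EGF-BT474R at 24 h, at 10.6 and 11.2 CPM against 6.92 and 6.26 (0.73, SE 0.13, adjusted p = 0.000248 in edgeR), the 2 highest of its 40 libraries. HRG-BT474R libraries had 7.45 and 7.18 CPM at that time, and HRG minus EGF was -0.57 (SE 0.13, adjusted p = 0.00745), a call lost without EGF replicate 2 (-0.54, adjusted p = 0.0807). In BT474 at 24 h the differences of 0.39 with EGF (adjusted p = 0.132) and 0.44 with HRG (adjusted p = 0.0554) had 95% intervals from 0.05 to 0.73 and from 0.11 to 0.76 and were not called. Without 1 library they ran from 0.20 (without EGF replicate 1) to 0.53 and from 0.12 (without HRG replicate 1) to 0.66. The HRG difference was called without HRG replicate 2 (0.66, adjusted p = 0.00443) or vehicle replicate 1 (0.58, adjusted p = 0.0364), and also with the size factors of DESeq2, with filterByExpr, with no filter on low counts and with both lines in 1 fit.

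**Figure D2:**
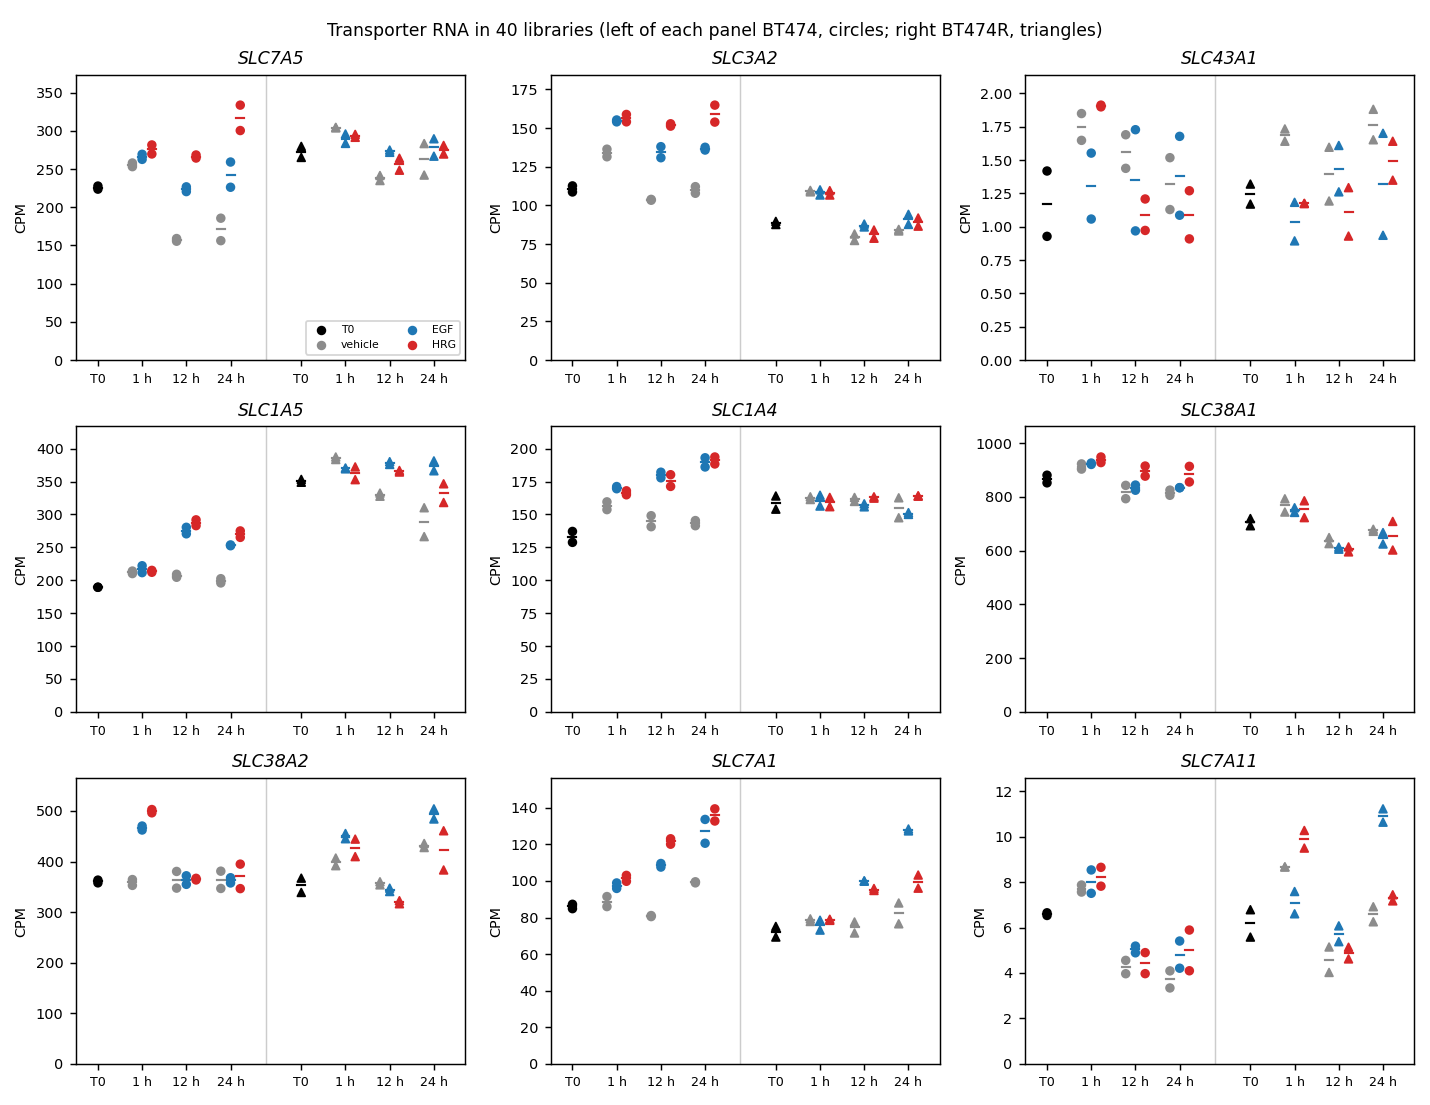
Level of each transporter (vertical axis, CPM) at T0, 1 h, 12 h and 24 h (horizontal axis), 1 point per library with a short line at the mean of 2, BT474 on the left of each panel and BT474R on the right, coloured by treatment. SLC7A5 in BT474 runs from 156 CPM in vehicle to 334 CPM with HRG, SLC38A2 in BT474 stands out at 1 h with 462 to 503 CPM under ligand, and SLC1A5 lies at 266 to 387 CPM in BT474R against 189 to 292 CPM in BT474.

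GLS2, the liver-type glutaminase, had group means of at most 1.15 CPM, and none of its ligand differences was called.

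Over the 9 transporters, EGF in BT474 gave 2 higher calls at 1 h, 5 at 12 h and also 5 at 24 h, and 0 were called lower. Of all 25146 genes tested in BT474, 1.65%, 9.04% and 9.71% were called higher. With HRG in BT474, 3, 6 and 6 of the 9 were called higher, where 2.16%, 13.3% and 12.5% of all genes were. In BT474R, EGF gave 0, 3 and 4 of 9, where 0.416%, 6.85% and 9.95% of all 24287 genes were called higher, and HRG gave 0, 1 and 2 of 9, where 0.169%, 2.38% and 1.89% were. At 1 h in BT474R the unadjusted p was under 0.05 for 3 of the 9 with EGF and 0 with HRG, and DESeq2 called 0 with either. The median log2 difference of the 9 at 12 h was 0.30 in EGF-BT474, 0.25 in HRG-BT474, 0.13 in EGF-BT474R and 0.02 in HRG-BT474R, with medians over all genes between -0.03 and -0.01. Both ligands share the vehicle libraries of their line and time. The shares over all genes include genes of low counts, where a call is harder to reach. With a stricter filter on low counts (filterByExpr), 2536 of 18778 genes were called higher in EGF-BT474 at 12 h and 3548 in HRG-BT474. The 3 calls in EGF-BT474R at 12 h fell to 1, SLC7A1, without any 1 of its 4 libraries, and the 2 calls in HRG-BT474R at 24 h fell to 0 without HRG replicate 2 or vehicle replicate 1 and when only the 4 libraries compared were fitted.

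**Figure D3:**
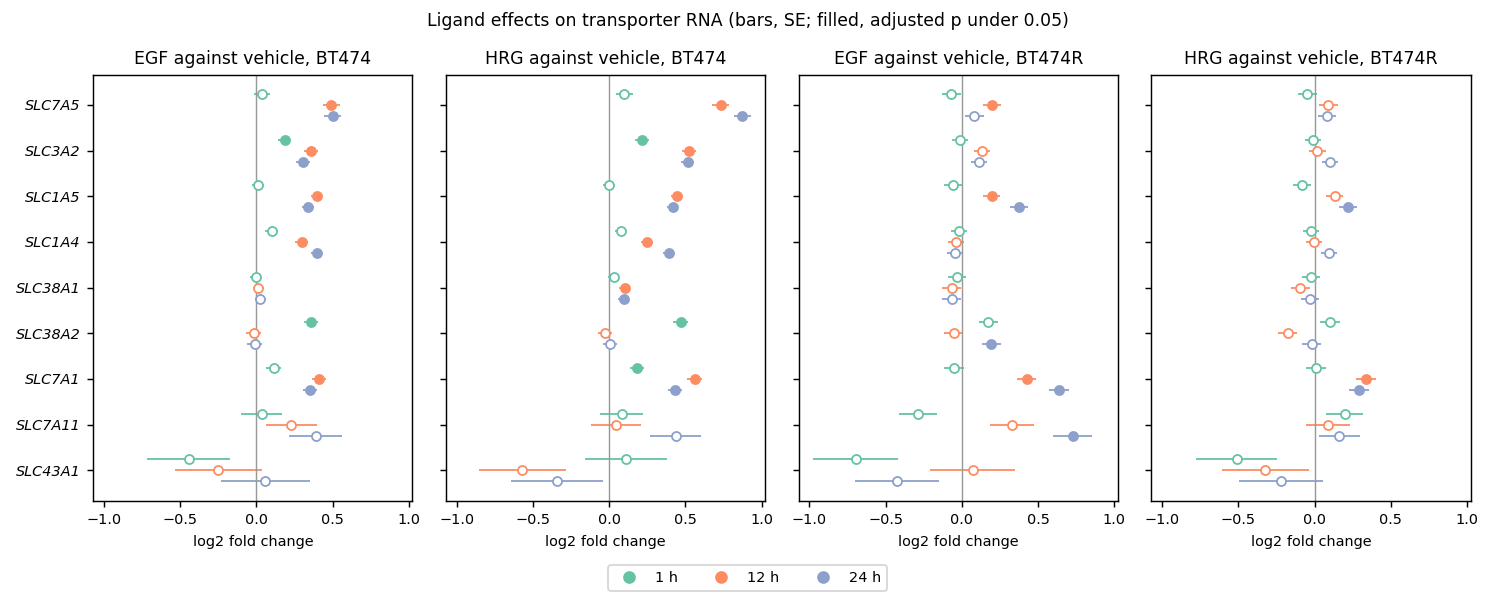
Log2 fold change of ligand over vehicle (horizontal axis) for each transporter at each of the 3 times, with bars for the SE and filled points for adjusted p under 0.05. In BT474 the 12 h and 24 h points of SLC7A5, SLC3A2, SLC1A5, SLC1A4 and SLC7A1 are filled for both ligands and lie between 0.25 and 0.87, and in HRG-BT474R only SLC7A1 and, at 24 h, SLC1A5 are filled.

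The ligands were also compared with each other, and effects with each other in time. HRG and EGF differed for 0, 2 and 2 of the 9 genes in BT474 at the 3 times in order, where 0.139%, 2.17% and 0.768% of all genes were called, and for 0, 0 and 2 in BT474R, where 0.0494%, 1.42% and 5.18% were. Where 0 were called, the unadjusted p was under 0.05 for 2 of the 9 in BT474 at 1 h and for 1 in BT474R at 1 h and at 12 h, and DESeq2 called 0. No effect of a ligand at 24 h was called different from its effect at 12 h, with 0 of 9 genes in EGF-BT474, HRG-BT474, EGF-BT474R and HRG-BT474R, where 0.517%, 2.5%, 0.185% and 0.0288% of all genes were called. The unadjusted p was under 0.05 for 0, 1, 4 and 0 of the 9, and DESeq2 called 0 in each.

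Vehicle alone, which brought fresh starvation medium, also moved the transporters in BT474. At 1 h, 4 of 9 rose over T0, SLC3A2 by 0.29 (SE 0.04, adjusted p = 2.08e-05 in edgeR), SLC1A4 by 0.25, SLC7A5 by 0.19 and SLC1A5 by 0.17, where 6.61% of all genes were called. The SLC7A5 call was lost without any 1 of the 4 libraries (0.16 to 0.22, adjusted p from 0.0771 to 0.246), in DESeq2 (adjusted p = 0.0948) and in 1 fit of both lines (adjusted p = 0.12), and the SLC1A5 call without T0 replicate 1 (0.16, adjusted p = 0.0773) or vehicle replicate 2 (0.16, adjusted p = 0.0732). At 12 h SLC7A5 fell by 0.53 (SE 0.06, adjusted p = 9.46e-09) and SLC7A11 by 0.64 (SE 0.16, adjusted p = 0.00685) while SLC1A5 rose by 0.12, where 6.41% of all genes were called. Of these 3, SLC1A5 was lost without any 1 of 4 libraries (0.10 to 0.15) and SLC7A11 without 3 of 4 (-0.66 to -0.53). At 24 h SLC7A5 fell by 0.40 (SE 0.06, adjusted p = 1.22e-06) and SLC7A11 by 0.84 (SE 0.17, adjusted p = 0.000343) while SLC7A1 rose by 0.21 (SE 0.05, adjusted p = 0.00232), where 11.4% were called. The vehicle that SLC7A5 is set against at 12 h and 24 h in BT474 was therefore below its T0 level. In BT474R, SLC3A2 rose at 1 h (0.30, SE 0.05, adjusted p = 0.0019), the only 1 of 9, where 2.24% of all genes were called, and this was lost without T0 replicate 2 (0.29, adjusted p = 0.0575). At 12 h 0 of 9 were called (4 with an unadjusted p under 0.05, and 1 by DESeq2), where 1.13% of all genes were called. At 24 h SLC38A2 rose by 0.30 (SE 0.06, adjusted p = 0.0029) and SLC1A5 fell by 0.27 (SE 0.06, adjusted p = 0.00299), where 13.7% were called. Neither was called in every fit that left out 1 library, with 0.25 for SLC38A2 without T0 replicate 1 (adjusted p = 0.0776) and -0.17 for SLC1A5 without vehicle replicate 1 (adjusted p = 0.0677).

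At T0 the lines differed in 6 of the 9 genes, with 3 higher and 3 lower in BT474R. Of all 24641 genes tested over both lines, 46.9% were called in either direction. With a stricter filter on low counts (filterByExpr), 11526 of 19747 genes were called. SLC1A5 was at 349 and 353 CPM in BT474R and 189 and 189 in BT474, a log2 difference of 0.89 (SE 0.05, adjusted p = 7.09e-18 in edgeR), or 1.85-fold, and it was the largest of the 9. SLC7A5 was at 265 and 280 CPM in BT474R and 224 and 228 in BT474 (0.27, SE 0.07, adjusted p = 0.000602), and SLC1A4 at 154 and 164 against 137 and 129 (0.26, SE 0.05, adjusted p = 1.72e-05). The heavy chain went the other way. SLC3A2 was at 89.7 and 87.6 CPM in BT474R and 113 and 109 in BT474 (-0.32, SE 0.05, adjusted p = 6.12e-07), SLC38A1 at 692 and 719 against 880 and 852 (-0.30, SE 0.05, adjusted p = 6.88e-06), and SLC7A1 at 69.3 and 75.1 against 87.2 and 84.9 (-0.25, SE 0.06, adjusted p = 0.000495). Of these 6 genes, SLC7A5 alone was lost when 1 library was left out, without BT474R replicate 2 (0.19). SLC38A2, SLC7A11 and SLC43A1 differed by -0.03, -0.08 and 0.11 and were not called, with 95% intervals from -0.15 to 0.09, from -0.38 to 0.22 and from -0.54 to 0.75. GLS2 was higher in BT474R by 1.48 (SE 0.49, adjusted p = 0.0124) at 1.02 and 0.936 CPM against 0.232 and 0.489, a call lost without BT474 replicate 1 (0.95, adjusted p = 0.205) or BT474R replicate 1 (1.39, adjusted p = 0.0551).

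**Figure D4:**
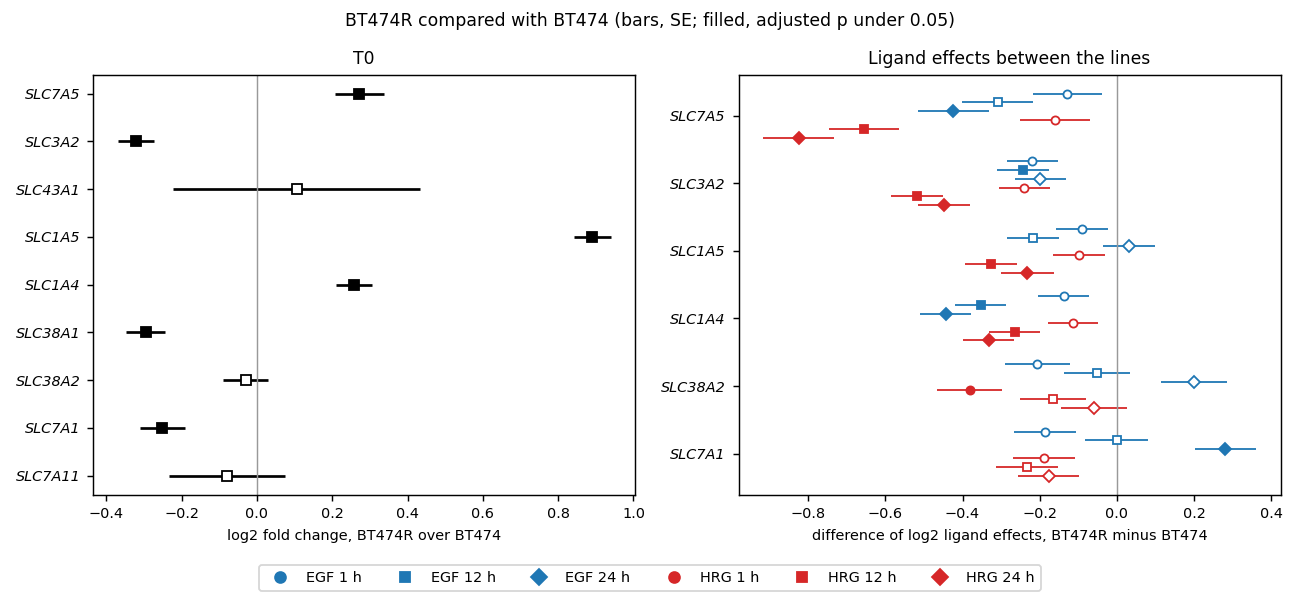
Left, log2 fold change of BT474R over BT474 at T0 (horizontal axis) for the 9 transporters. Right, the difference of log2 ligand effects, BT474R minus BT474 (horizontal axis), for 6 of them, blue for EGF and red for HRG, with bars for the SE and filled points for adjusted p under 0.05. At T0 SLC1A5 stands furthest from 0 at 0.89, and on the right the HRG points of SLC7A5 at 12 h and 24 h lie lowest, at -0.66 and -0.82.

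The ligand effects themselves differed between the lines, by an interaction term in the model of both lines together (40 libraries). With HRG the SLC7A5 effect was smaller in BT474R. The difference (BT474R minus BT474) was -0.66 (SE 0.09, adjusted p = 1.17e-05 in edgeR) at 12 h and -0.82 (SE 0.09, adjusted p = 1.19e-07) at 24 h. Mean SLC7A5 at 12 h was 157 CPM with vehicle and 266 with HRG in BT474, and 238 and 256 in BT474R. At 24 h the means were 171 and 317 CPM in BT474 and 263 and 275 in BT474R. The vehicle levels thus differed between the lines too, and their part in the difference was not tested. The SLC3A2 effect of HRG differed by -0.52 (SE 0.07, adjusted p = 3.72e-06) and -0.45 (SE 0.07, adjusted p = 2.66e-05). SLC1A5 differed by -0.33 (SE 0.07, adjusted p = 0.00264) and -0.23 (SE 0.07, adjusted p = 0.0493), and SLC1A4 by -0.27 (SE 0.07, adjusted p = 0.0131) and -0.33 (SE 0.07, adjusted p = 0.00153). Of these 8, SLC7A5 and SLC3A2 at both times and SLC1A4 at 24 h held in all 8 fits that left out 1 library. SLC1A4 at 12 h was lost in 6 of 8 (-0.27 to -0.21), SLC1A5 at 12 h in 1 of 8 (without HRG-BT474 replicate 2, -0.29, adjusted p = 0.0784) and SLC1A5 at 24 h in 6 of 8 (-0.24 to -0.12). With only the libraries compared, the 24 h differences were about as large, but SLC3A2 (-0.44, adjusted p = 0.0839), SLC1A4 (-0.33, adjusted p = 0.271) and SLC1A5 (-0.23, adjusted p = 0.658) were not called and SLC7A5 was. These were 4 of the 9 genes at each time, where 4.07% and 3.33% of all genes were called. At 1 h with HRG, SLC38A2 was the 1 gene called (-0.38, SE 0.09, adjusted p = 0.0178), where 0.544% of all genes were, and this call was lost in 6 of 8 such fits (-0.42 to -0.30). With EGF, SLC1A4 differed by -0.35 (SE 0.07, adjusted p = 0.000939) at 12 h and -0.44 (SE 0.07, adjusted p = 1.49e-05) at 24 h. SLC3A2 differed by -0.24 (SE 0.07, adjusted p = 0.0454) at 12 h, SLC7A5 by -0.42 (SE 0.09, adjusted p = 0.00284) at 24 h, and SLC7A1, the only called gene whose effect was larger in BT474R, by 0.28 (SE 0.08, adjusted p = 0.034) at 24 h. The SLC1A4 calls held in all 8 fits that left out 1 library, SLC3A2 (-0.26 to -0.17) and SLC7A1 (0.19 to 0.30) were lost in 6 of 8, and SLC7A5 in 2 of 8 (without EGF-BT474 replicate 1, -0.31, adjusted p = 0.105, and without vehicle-BT474 replicate 2, -0.29, adjusted p = 0.0926). With only the libraries compared, SLC7A5 (-0.40, adjusted p = 0.0678) and SLC7A1 (0.30, adjusted p = 0.186) at 24 h were not called. These were 2 and 3 of 9 genes, where 1.96% and 4.01% of all genes were called. At 1 h with EGF 0 of 9 were called (4 with an unadjusted p under 0.05, and 0 by DESeq2), where 0.138% of all genes were.

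Across the 20 group means, after each line's own mean was subtracted, the gene most like SLC7A5 among 10225 genes was SLC3A2, with a Pearson r of 0.86, followed by CDC25B (r = 0.86). The genes most like SLC7A1 were EIF4EBP1, a translation repressor that mTORC1 phosphorylates, and EIF3D (r = 0.97 and 0.96), and those most like SLC1A5 were HS6ST2 and ATP1B3 (r = 0.94 and 0.94). For SLC1A4 they were FNIP2 and ATG4D (r = 0.91 and 0.88), for SLC3A2 OPA1 and SYDE2 (r = 0.91 and 0.91), for SLC38A1 OGA and KLF5 (r = 0.95 and 0.93), for SLC38A2 KPNA5 and SAMD8 (r = 0.91 and 0.91), and for SLC7A11 GOLM1 and KLF7 (r = 0.88 and 0.88). SLC43A1 had no gene as close, the nearest being LZTS3 and PTPN18 (r = 0.69 and 0.66). The group means share treatments, times and library sizes, and the nearest genes were picked for their r.

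Other genes of amino acid use were described by lists. Of 20 aminoacyl-tRNA synthetases, which charge tRNAs with amino acids, 11 rose and 1 fell with EGF in BT474 at 12 h and 13 rose and 1 fell with HRG, where 9.04% and 13.3% of all genes were called higher and 6.99% and 12.5% lower. FARSB (0.37 and 0.49) and YARS1 (0.37 and 0.41) rose with both, and QARS1, the glutamine enzyme, fell with both (-0.20 and -0.43), the EGF call being lost without EGF replicate 2 (-0.18, adjusted p = 0.0554) or vehicle replicate 1 (-0.17, adjusted p = 0.0575). In BT474R 7 rose with EGF, led by WARS1 (1.00, SE 0.12), and 3 with HRG, and 0 fell, where 6.85% and 2.38% of all genes were called higher and 5.13% and 1.73% lower. The median log2 difference of the synthetases at 12 h was 0.18, 0.21, 0.11 and 0.07 in EGF-BT474, HRG-BT474, EGF-BT474R and HRG-BT474R.

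Of 20 genes of the amino acid response, the program driven by ATF4 when amino acids run short, 8 rose and 1 fell with EGF in BT474 at 12 h, 9 rose and 2 fell with HRG, 6 rose and 1 fell with EGF in BT474R, and 1 rose with HRG in BT474R. The shares of all genes called higher in these 4 comparisons were 9.04%, 13.3%, 6.85% and 2.38%, and the shares called lower 6.99%, 12.5%, 5.13% and 1.73%. TRIB3, a pseudokinase induced by ATF4, rose in all 4 (0.40, 0.42, 0.65 and 0.36), though in HRG-BT474R not without any 1 of the 4 libraries (0.32 to 0.43). Of 26 other amino acid transporters, 25 were tested in BT474 and 24 in BT474R. At 12 h, 2 rose and 2 fell in EGF-BT474, 3 rose and 5 fell in HRG-BT474, 2 rose and 4 fell in EGF-BT474R, and 0 were called in HRG-BT474R (4 with an unadjusted p under 0.05, and 1 by DESeq2). Read against the same shares of all genes, several of these counts lay near the background, such as 2 of 25 rising in EGF-BT474 (9.04% of all genes) and 3 of 25 in HRG-BT474 (13.3%). The 4 calls in EGF-BT474 fell to 2 without EGF replicate 2 or vehicle replicate 1, and the 8 in HRG-BT474 to 5 without HRG replicate 2. SLC1A1, a glutamate carrier, rose in BT474 (0.68 and 0.72), and SLC6A14, a broad carrier of neutral and cationic amino acids, rose in EGF-BT474, HRG-BT474 and EGF-BT474R (0.27, 0.53 and 0.42), with the EGF-BT474R call lost without any 1 library (0.31 to 0.51) and the EGF-BT474 call lost in 3 of 4 such fits (0.23 to 0.31). Among the falls, SLC1A2, at 3.09 and 4.16 CPM in BT474 at T0, fell in EGF-BT474 and HRG-BT474 (-1.15, SE 0.29, and -0.96, SE 0.27). SLC38A7 fell in HRG-BT474 and EGF-BT474R (-0.70 and -0.39), and SLC16A10 and SLC36A1 fell in EGF-BT474R (-0.60 and -0.52). The medians of this list were -0.08, -0.12, -0.05 and -0.07.

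Of 16 glutamine-handling enzymes, which share ASNS and PSAT1 with the amino acid response list, 4 rose and 2 fell in BT474 at 12 h with either ligand, and 1 rose and 1 fell in BT474R with either ligand. Of all genes, 9.04% and 13.3% rose and 6.99% and 12.5% fell in BT474 with EGF and HRG, and 6.85% and 2.38% rose and 5.13% and 1.73% fell in BT474R. The 6 calls in EGF-BT474 fell to 2 without vehicle replicate 2 and 3 without EGF replicate 2. PPAT, the first enzyme of purine synthesis, rose in BT474 (0.28 and 0.57), the EGF call being lost without EGF replicate 1 (0.21, adjusted p = 0.102) or vehicle replicate 2 (0.23, adjusted p = 0.0727). GLUL, glutamine synthetase, rose in BT474R (0.44 and 0.23), the HRG call being lost in 3 of 4 fits that left out 1 library (0.23 to 0.25, adjusted p from 0.0555 to 0.0865). GCLC, which makes the precursor of glutathione, fell in all 4 (-0.28, -0.35, -0.31 and -0.25), in HRG-BT474R not without any 1 library (-0.26 to -0.20) and in EGF-BT474R not without EGF replicate 1 (-0.23, adjusted p = 0.0978) or vehicle replicate 1 (-0.27, adjusted p = 0.0507). Of 25 genes of amino acid sensing by mTORC1, 1 rose and 7 fell in EGF-BT474 at 12 h, 2 rose and 8 fell in HRG-BT474, and 5 and 4 fell in EGF-BT474R and HRG-BT474R with 0 rising, beside the same shares of all genes. The 8 calls in EGF-BT474 fell to 5 without EGF replicate 1. RRAGB, a Rag GTPase, fell in all 4 (-0.44, -0.53, -0.61 and -0.38), and SESN3, a sestrin, fell in EGF-BT474, HRG-BT474 and HRG-BT474R (-0.69, -0.95 and -0.73). In HRG-BT474R the RRAGB call was lost in 3 of 4 fits that left out 1 library (-0.42 to -0.28, adjusted p from 0.0634 to 0.361) and the SESN3 call in 2 of 4 (-0.64 and -0.59, adjusted p = 0.106 and 0.185), and both with only the libraries compared (adjusted p = 0.0942 and 0.0721). In fits that left out 1 library, HRG-BT474R at 12 h had at most 2 calls in each of these lists, and EGF-BT474R at 12 h had 1 to 3 calls among the other transporters, 2 to 6 among the response genes, 3 to 5 among the synthetases and 1 or 2 among the sensing genes.

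At T0, 12 of 24 other transporters, 12 of 16 glutamine enzymes, 17 of 20 amino acid response genes, 14 of 20 synthetases and 18 of 25 sensing genes were called between the lines, against the 46.9% of all genes given above. Of the other transporters called, 5 were higher and 7 lower in BT474R. Among those higher were SLC6A9 (0.89), SLC1A1 (0.56) and SLC36A4 (0.53). Several transporters outside the 9 were lower in BT474R by more than any of the 9. SLC7A2, an arginine carrier of the family of SLC7A1, was at 51.6 and 55.8 CPM in BT474R and 163 and 164 in BT474 (-1.60, SE 0.06), and SLC6A14 at 3.54 and 3.84 against 29.7 and 31.0 (-3.03, SE 0.11). GLUL was higher in BT474R by 1.22 (SE 0.07), and GOT1, the cytosolic aspartate aminotransferase, lower (-0.82, SE 0.07).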

How the data were processed

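Gene-level read counts of 40 libraries were deposited by the authors as 1 table, made with featureCounts from reads trimmed with Trim Galore 0.6.6 and checked with FastQC and MultiQC, per the submitters' processing notes. The annotation release and the strand setting of the counting are not given in the sources used here. No value column was left out. Groups were taken from the sample labels, and the ligand doses from the study's methods. From the counts, edgeR 4.0.16 (with limma 3.58.1 in R 4.3.3) was run with TMM factors, a gene filter that asked for 1 count or more in 50% or more of the libraries fitted, and its quasi-likelihood test, with p-values adjusted over all genes tested by Benjamini-Hochberg (threshold 0.05). Each line was fitted with its 20 libraries, and both lines together (40 libraries) for T0 and for differences of ligand effects. SEs are the absolute log2 fold change divided by the square root of the F statistic of the quasi-likelihood test. The 95% intervals are 1.96 SE on each side. They are not adjusted over genes, so an interval can exclude no change where the difference was not called. The test was checked on simulated counts. Levels are CPM, and total counts of 16794594 to 33387936 a library set their precision.

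The transporters, lists and comparisons were chosen with earlier results of these data known. All 9 transporters were named, with GLS2; 1 further gene that the rule names is not reported here. Of each list, up to 3 called genes per direction with the largest change at 12 h or T0 and a mean of at least 1 CPM could be named, and for each transporter the 2 genes with the highest Pearson r over the 20 group means among genes with a mean of at least 10 CPM. Alternatives were DESeq2 1.42.0, its size factors in edgeR, filterByExpr, no filter on low counts, a fit of only the libraries compared, 1 fit of both lines, a replicate block, a replicate block within each time point, CPM on raw library totals, and leaving out each library in turn. For T0 and differences between lines, the last used the trended dispersion of the full fit.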

Additional observations from a re-analysis of the deposited data

Results flagged for a closer look

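The following differences of a ligand effect between the lines, BT474R minus BT474 on the log2 scale, passed the interaction test of edgeR (adjusted p under 0.05) and are listed because 2 lines under the same contrast differed. For the heteromer, the SLC7A5 effect of HRG differed by -0.6551 at 12 h and -0.8248 at 24 h and that of EGF by -0.4241 at 24 h, and the SLC3A2 effect of HRG by -0.5177 at 12 h and -0.4486 at 24 h and that of EGF by -0.2442 at 12 h. For the exchangers of neutral amino acids, the SLC1A4 effect of EGF differed by -0.3529 at 12 h and -0.4436 at 24 h and that of HRG by -0.2653 at 12 h and -0.3318 at 24 h, and the SLC1A5 effect of HRG by -0.3271 at 12 h and -0.2326 at 24 h. The SLC38A2 effect of HRG at 1 h differed by -0.3818, and the SLC7A1 effect of EGF at 24 h by 0.2806, the only 1 of the 14 that was larger in BT474R. Of these, SLC3A2 with EGF, SLC1A4 with HRG at 12 h, SLC1A5 with HRG at 24 h, SLC38A2 and SLC7A1 were each lost in 6 of 8 fits that left out 1 library. Each effect is taken over the vehicle of its own line and time, and vehicle SLC7A5 in BT474 lay below T0 at 12 h and 24 h. With 2 libraries a group, no group was large enough to be tested for a single library far from the others.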

How the results depend on the processing

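Of 76 called differences of the 9 transporters, DESeq2 kept 75, the size factors of DESeq2 in edgeR 74, filterByExpr 75, no filter on low counts 73 and a fit of only the libraries compared 63, and 1 fit of both lines kept 51 of the 56 it could give. None of these changed direction. Only the called differences and a chosen part of the others were followed through the fits that left out 1 library. Among these, 6 differences that were not called changed sign. With 1 library left out, SLC1A4 in EGF-BT474R at 24 h ran from -0.112 to 0.0399 (without vehicle replicate 2), SLC7A5 at 24 h from -0.02799 to 0.2092 in EGF-BT474R and from -0.04038 to 0.2099 in HRG-BT474R (the lowest without vehicle replicate 1), and SLC3A2 in HRG-BT474R at 12 h from -0.003556 (without HRG replicate 2) to 0.09183. At T0, SLC7A11 ran from -0.2792 to 0.01108 (without BT474R replicate 1), and SLC43A1 from -0.2299 (without BT474 replicate 1) to 0.3862, with -0.006926 without BT474R replicate 1.

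Whether the replicate numbers pair the libraries was not settled, since deviations of same-numbered libraries correlated in both directions. Of 72 pairs at different times in a line, 19 had a correlation over 0.1 and 11 under -0.1 (range -0.322 to 0.412). Of 18 pairs at the same time, 7 were over 0.1 and 3 under -0.1 (range -0.210 to 0.504). With a replicate block 76 of 76 calls were kept. With a replicate block within each time point also 76 were kept, with 4 instead of 2 transporters called for the EGF effect between the lines at 12 h. Over all genes, the block within each time point called more in each ligand comparison. Examples are 771 against 550 in EGF-BT474 at 1 h and 1058 against 675 in HRG-BT474R at 24 h.

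Counts of called transporters moved as follows. With only the libraries compared, they went from 2 to 1 in EGF-BT474 at 1 h, 0 to 1 in EGF-BT474R at 1 h, 2 to 0 in HRG-BT474R at 24 h, 2 to 4 and 2 to 1 for HRG minus EGF in BT474 at 12 h and 24 h, 2 to 0 for the same in BT474R at 24 h, 1 to 6 and 0 to 3 for vehicle minus T0 in BT474R at 1 h and 12 h, 0 to 1, 2 to 4 and 3 to 1 for the EGF effect between the lines at the 3 times in order, and 4 to 7 and 4 to 1 for the HRG effect at 12 h and 24 h. For HRG minus EGF in BT474R at 24 h, DESeq2, no filter and 1 fit of both lines each gave 4. DESeq2 gave 1 for vehicle minus T0 in BT474R at 12 h and 2 for the HRG effect between the lines at 1 h, no filter gave 2 for vehicle minus T0 in BT474R at 1 h, and the DESeq2 size factors gave 1 for the EGF effect at 12 h.

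With 1 library left out, the counts ran from 1 to 2 in EGF-BT474 at 1 h, were 1 throughout in EGF-BT474R at 12 h, and ran from 0 to 3 in HRG-BT474R at 24 h. For HRG minus EGF they ran from 0 to 1 (BT474 at 12 h), 1 to 2 (BT474 at 24 h) and 1 to 3 (BT474R at 24 h), and for vehicle minus T0 from 2 to 3 and 1 to 2 (BT474 at 1 h and 12 h) and 0 to 1 and 1 to 2 (BT474R at 1 h and 24 h). The 24 h minus 12 h effect of HRG in BT474 had 0 to 1. Between the lines, the EGF effect had 1 to 2 at 12 h and 1 to 3 at 24 h, and the HRG effect 0 to 1 at 1 h and 2 to 4 at 12 h. The cause of these changes was not tested.

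Over all genes, the called number moved by more than 1.5 times in EGF-BT474 at 1 h (550, with only the libraries compared 240), EGF-BT474R at 1 h (111, with no filter 226, with only the libraries compared 279) and 12 h (2910 against 5176), and HRG-BT474R at 1 h (41, 1 fit of both lines 68, no filter 151, only the libraries compared 121), 12 h (1000, 1606, 1577 and 566) and 24 h (675, 1137, 1147 and 0, and 1058 with the replicate block within each time point). On raw library totals, 89 of 180 group levels of the transporters moved by less than 1 SD. With 2 libraries a group, SLC43A1, SLC7A11 and GLS2 were too low for small changes to be detected, and 1 clone stands for BT474R.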
